A study of Mus musculus with 16 samples.

Results

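The comparison described here follows 3T3-L1 cells that received only the vehicle, DMSO, from 2 h to 36 h. Its members are the 8 vehicle arrays of a series of 16, chosen by sample title, with 4 biological replicates at 2 h and 4 at 36 h. 3T3-L1 is a line of mouse fibroblasts that can become adipocytes. The other 8 arrays of the series carry RNA of cells given dexamethasone (dex), a synthetic glucocorticoid, for the same times. Dex values are given below beside the vehicle values. The dex arrays also enter the vehicle test, because the reported fit to all 16 arrays shares its variance per probe between the treatments. No treatment other than dex or DMSO is named in the labels, and they do not state the density, medium or serum of the cultures. Total RNA of each culture was labelled with Cy5 and hybridised together with a pool of the samples in Cy3, so every value is a log ratio of sample over pool. Base 2 was assumed, since no source used here states the base of the logarithm.

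3T3-L1 cells grow as fibroblasts, stop dividing when they touch each other, and turn into fat-storing cells only after a hormone mix that includes a glucocorticoid. While they remain preadipocytes they make actin fibres and a matrix rich in fibrillar collagen, and this matrix is taken apart and replaced by a basement membrane as adipocytes form. The transcription factors C/EBPbeta and C/EBPdelta act early in that programme, and PPARgamma and C/EBPalpha later drive the genes of lipid uptake and storage. Vehicle cells are the controls against which the treated cells of each time are read.

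A change over time in these data is a difference between ratios to a pool. No source used here states whether the arrays of both times were hybridised against the same pool, or names a scan date or a slide. Time, array batch and any difference between pools therefore cannot be told apart in vehicle alone. "Rose" and "fell" below refer to the ratio. The change over time with dex minus that in vehicle is given beside the leading genes. A pool of each time drops out of this difference if the vehicle and dex arrays of that time shared it. Whether they shared a pool or an array batch is not stated. Labels name biological replicates but not the cultures they came from, so p-values measure the spread between these samples.

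The 2-hour vehicle arrays were noisier than the 36-hour vehicle arrays. The SD over probes of each array's deviation from its group mean was 0.332, 0.281, 0.183 and 0.435 in replicates 1 to 4 at 2 h and 0.108 to 0.151 at 36 h. Replicate 4 at 2 h had a mean correlation of -0.104 with the other 3 arrays of its group across probes, whereas pairs of the 36-hour arrays correlated at 0.527 to 0.684. Vehicle replicate 2 at 36 h correlated at -0.338 with dex replicates 1 and 3 at that time. Since the dye of each channel is labelled, the ratios kept their sign. Array medians were within 0.011 of 0 in all 16 arrays. Fibroblast genes were present among the probes for all 10 markers listed, but without scanner intensities no level or detection can be given for them or for any other gene. Of those 10 markers, 1 (Col1a1) rose and none fell. Among 10 macrophage and 10 endothelial markers none passed the test in limma (2 and 0 of them had an unadjusted p under 0.05), and of 10 epithelial markers Krt8, a keratin, fell.

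Between 2 and 36 h in vehicle, 248 of 19640 genes passed the threshold in at least 1 probe, which is 1.26% of genes tested (limma, Benjamini-Hochberg adjusted p under 0.05 over 38467 probes). By this rule a gene with more probes passes more readily, and 6325 genes had several. The shares of gene lists below, and those of all genes beside them, were not adjusted for probe number. Falls outnumbered rises. The ratio fell for 195 genes (0.993%) and rose for 53 (0.27%). After quantile normalization of the deposited values the split was less uneven, at 454 down and 294 up of 750 genes called. A change of at least 1 on the log2 scale was reached by 47 of the genes that fell and 4 of those that rose, with medians of -0.64 and 0.55. If a time's pool held that time's vehicle and dex samples, a ratio could fall further below the pool than rise above it. The part of this in the uneven split was not tested. All 53 risers had their 36-hour arrays entirely above the 2-hour arrays, and 194 of the 195 fallers entirely below. Such a separation was also shown by 10.5% of all probes, with 4.08% higher and 6.44% lower at 36 h. The genes were called on these same arrays, so their separation follows in large part from the call and is no support for it. Without vehicle replicate 4 at 2 h the count was 531 genes (162 up, 369 down), and 237 of the 248 kept their call and direction. Leaving out a 36-hour replicate left 120 to 140 genes, and a fit to the 8 vehicle arrays alone called 94, of which 81 were among the 248.

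After Fam221b and Pigt, which also rose with dex and are described further on, the largest rise was that of Ptn, which encodes pleiotrophin, a heparin-binding growth factor of embryonic and mesenchymal tissue. Its log2 ratios to the pool were -0.25, -0.36, -0.20 and 0.09 at 2 h and 0.68, 1.15, 1.43 and 1.38 at 36 h. All 4 late arrays were above all 4 early ones, and the change was 2.53-fold (1.34 ± 0.18 on the log2 scale, SE, n = 4 per group, limma adjusted p = 0.00117). The second Ptn probe also passed (0.84). With dex the same probe moved by -0.70, which did not pass, and the time changes differed by -2.04 (adjusted p = 2.13e-04).

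**Figure D1:**
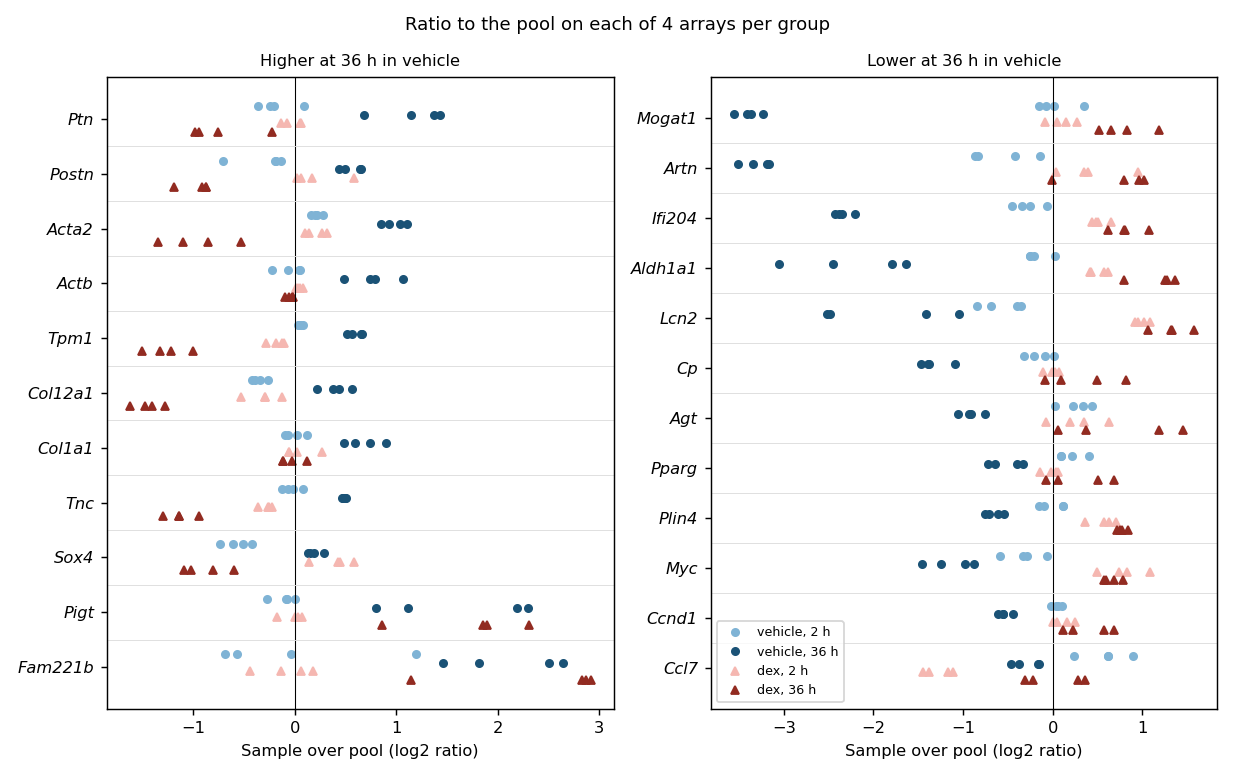
Each point is 1 array, plotted by its log2 ratio of sample over pool, for 11 genes whose ratio was higher at 36 h in vehicle (left) and 12 whose ratio was lower (right); circles are vehicle and triangles dex, pale at 2 h and dark at 36 h. For every gene shown the dark circles stand clear of the pale circles, and the dark triangles stand clear of the dark circles except in Pigt, Fam221b and Ccl7.

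The actin genes that passed in the fit to all arrays rose. Of 33 measured genes of actin filaments and contraction, 3 rose and none fell, against 1.26% of all genes called. The list's median change was 0.07, with -0.02 over all genes. Acta2, smooth muscle actin and the marker of contractile fibroblasts, stood at 0.22, 0.28, 0.20 and 0.16 at 2 h and at 1.04, 0.85, 1.11 and 0.93 at 36 h. It rose 1.71-fold (0.77 ± 0.13, adjusted p = 0.00999) in 1 of 4 probes, the others giving 0.19, 0.45 and 0.38 without passing. Tpm1, a tropomyosin that lies along actin filaments, rose by 0.55 ± 0.09 (adjusted p = 0.00891), from 0.04, 0.03, 0.07 and 0.08 to 0.52, 0.65, 0.67 and 0.56, while its second probe gave 0.61 and did not pass. Actb, cytoplasmic beta-actin and a common reference gene, rose by 0.82 ± 0.10 (adjusted p = 7.16e-04) at the probe with the smallest p, whose 36-hour arrays read 1.07, 0.74, 0.79 and 0.48. Of 32 Actb probes 4 passed, and the other 31 beside the quoted one gave 0.10 to 0.61, all above 0. Tagln, the smooth muscle protein transgelin, gave 0.08 ± 0.10 (adjusted p = 0.814). Under quantile normalization Acta2 and Tpm1 no longer passed (adjusted p = 0.0861 and 0.0525), while the list held 6 rises and 2 falls. It held 5 rises and 1 fall with array weights, and 3 and 1 without vehicle replicate 4 at 2 h.

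With dex the same actin genes went the other way over time. Acta2 fell by 1.17 and Tpm1 by 1.09, both past the threshold, and Actb gave -0.10, which did not pass. The dex change minus the vehicle change was -1.94 for Acta2, -1.64 for Tpm1 and -0.92 for Actb, past the threshold in each case. Set against vehicle at the same time, dex differed by -0.01 at 2 h and by -1.95 at 36 h in Acta2.

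Matrix genes moved in both directions. Of 20 collagen chains, 2 rose and 3 fell (25% called, against 1.26% of all genes). The counts were 1 and 2 in the fit to the vehicle arrays alone. Col1a1, the main chain of fibrillar collagen I, went from -0.10, -0.07, 0.02 and 0.12 to 0.59, 0.74, 0.90 and 0.49, a rise of 0.69 ± 0.10 (adjusted p = 0.0037). Col12a1, a collagen that binds to the surface of such fibrils, rose by 0.76 ± 0.10 (adjusted p = 0.00144), although a second probe gave -0.004. Those that fell were Col4a1, a basement membrane chain (-0.67 ± 0.09, adjusted p = 0.00129), and Col6a2 and Col6a1, chains of the beaded filaments of collagen VI (-0.61 and -0.54). The 36-hour arrays of Col4a1 read -1.25, -1.07, -0.92 and -1.09 against -0.27, -0.42, -0.50 and -0.44 at 2 h, with no overlap. The fall of Col6a1 is weakly held, as leaving out any of 14 of the 16 arrays ended the call (adjusted p up to 0.169).

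Among 41 other matrix genes, 3 rose and 1 fell (9.76% called, against 1.26% of all genes), with a median change of 0.10. The counts were 6 and 2 under quantile normalization, and 1 and 1 with gene means or the vehicle arrays alone. Postn, periostin, a matricellular protein of stressed connective tissue, went from -0.71, -0.13, -0.19 and -0.20 to 0.43, 0.65, 0.65 and 0.49. That is a rise of 1.82-fold (0.86 ± 0.14, adjusted p = 0.00722), and both Postn probes passed. Tnc, tenascin-C, an adhesion-modulating glycoprotein, stood at -0.06, -0.02, -0.12 and 0.08 at 2 h and at 0.51, 0.46, 0.47 and 0.49 at 36 h. Its rise of 0.51 ± 0.08 (adjusted p = 0.00424) was found in 1 of 6 probes, the other 5 giving 0.20 to 0.64, and was lost in quantile-normalized values (adjusted p = 0.0558). Dcn, the small proteoglycan decorin, rose by 0.43 ± 0.09. Nid1, nidogen, which joins the networks of the basement membrane, fell by 0.53 ± 0.09. The call of Dcn ended without any of 6 arrays (adjusted p up to 0.105), and that of Nid1 without vehicle replicate 1 or 2 at 36 h (0.0502 and 0.0526).

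In the same 41 genes the change over time with dex passed in 13, all of them falls, against 2.43% of all genes called and 1.39% called downward. Postn fell by 1.17, Tnc by 0.86 and Dcn by 0.41 between 2 and 36 h of dex, and of the collagens Col12a1 fell by 1.14. Dex minus vehicle gave -2.03 for Postn, -1.37 for Tnc, -1.90 for Col12a1 and -0.77 for Col1a1, and 1.18 for Col4a1, each past the threshold.

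The promoters of Postn and Tnc, matrix genes that rose together, and of Agt, a gene of the adipocyte list that fell, are shown because each has a window with the letters TATAAA, the core of the TATA box. In each the 250 bases before a RefSeq start site of GRCm38.p6 are printed 5′ to 3′ with the match in capitals.
Postn, chr3:54360857-54361106, plus strand: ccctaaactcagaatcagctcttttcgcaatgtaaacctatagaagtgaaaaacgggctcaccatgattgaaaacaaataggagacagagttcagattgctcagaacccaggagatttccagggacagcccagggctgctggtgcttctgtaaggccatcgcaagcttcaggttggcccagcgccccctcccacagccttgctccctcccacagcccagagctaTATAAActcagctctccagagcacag
Tnc, chr4:64047016-64047265, minus strand: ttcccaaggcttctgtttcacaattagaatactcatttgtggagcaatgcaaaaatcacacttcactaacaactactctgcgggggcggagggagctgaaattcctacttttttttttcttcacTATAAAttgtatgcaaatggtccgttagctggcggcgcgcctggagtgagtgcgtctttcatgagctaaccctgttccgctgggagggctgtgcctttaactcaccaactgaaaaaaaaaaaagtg
Agt, chr8:124569707-124569956, minus strand: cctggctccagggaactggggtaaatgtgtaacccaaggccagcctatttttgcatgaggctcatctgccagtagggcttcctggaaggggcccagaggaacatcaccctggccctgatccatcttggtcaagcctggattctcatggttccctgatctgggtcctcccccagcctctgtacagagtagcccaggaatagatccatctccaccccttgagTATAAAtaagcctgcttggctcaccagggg
The match begins at base -26 in Postn, at -30 in Agt and at -126 in Tnc, counted back from the start. RefSeq has a second start for Postn, whose window (chr3:54359017-54359266) holds no match, and for Tnc, whose window (chr4:64046937-64047186) holds the same letters at -205. Searched on both strands and in any window of a gene, TATAAA was held by 7 of 40 risers with a promoter in the table (17.5%), by 25 of 162 fallers (15.4%) and by 1890 of all 15379 genes (12.3%). CCAAT was held by 42.5%, 40.7% and 39.0%, and the TEAD letters GGAATG by 15.0%, 16.05% and 13.4%. These shares are descriptions of the windows and lay near those of all genes. A match is not a site.

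Proteases and their inhibitors gave 2 rises and 1 fall in 21 genes (14.29% called, against 1.26% of all genes). With the replicate block they gave no rise and 1 fall. Timp3, a matrix-bound inhibitor of metalloproteases, rose by 0.51 ± 0.10, and Adamts1, a secreted protease that cuts proteoglycans, by 0.44 ± 0.09. Adamts12, of the same family, fell by 0.79 ± 0.11 (adjusted p = 0.00129), from 0.16, -0.11, 0.00 and -0.11 to -0.89, -0.76, -0.72 and -0.83, in both of its probes. The calls of Timp3 and Adamts1 ended without any of 3 and of 5 arrays (adjusted p up to 0.0755 and 0.107).

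Beyond the matrix the risers included signalling and adhesion genes. Sox4, a transcription factor of progenitor cells, rose by 0.76 ± 0.12 (adjusted p = 0.00407), from -0.42, -0.61, -0.74 and -0.51 to 0.13, 0.19, 0.28 and 0.15. Itga11, a collagen-binding integrin subunit of fibroblasts, rose by 0.47 ± 0.08, and Wnt5a, a ligand of the non-canonical Wnt pathway, by 0.40 ± 0.08. The Wnt5a call ended without any of 9 arrays (adjusted p up to 0.135). Sox4 fell by 1.28 with dex, and its dex change minus its vehicle change was -2.04 (adjusted p = 7.58e-06). It was lost from the calls under quantile normalization (adjusted p = 0.132).

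The other large rises were of Tcim (1.01), Malat1, a nuclear long noncoding RNA (0.89), Adam21 (0.83), Upp2, a uridine phosphorylase (0.73), Nrep (0.67), Peli1, a ubiquitin ligase (0.63), and Serpinb3a, a serpin (0.62). Nrep was the steadiest of these, at 0.09, 0.03, 0.09 and 0.09 at 2 h and 0.70, 0.83, 0.76 and 0.68 at 36 h (adjusted p = 0.00194). Malat1 lost its call without vehicle replicate 3 at 36 h (adjusted p = 0.0531). Serpinb3a and Adam21 each lost theirs without any of 4 arrays, and Upp2 without any of 5 (adjusted p up to 0.0835, 0.0939 and 0.0933). Upp2 had 2 further probes, at -0.04 and -0.09.

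Fam221b and Pigt rose in both vehicle and dex. Fam221b went from -0.57, -0.69, -0.04 and 1.20 at 2 h to 1.46, 1.81, 2.65 and 2.51 at 36 h (2.13 ± 0.44, adjusted p = 0.0307), and by 2.53 with dex. Pigt, a subunit of the complex that attaches glycolipid anchors to proteins, went from -0.27, -0.09, 0.00 and -0.07 to 1.12, 0.80, 2.30 and 2.19 (1.71 ± 0.32, adjusted p = 0.0153), and by 1.75 with dex. The averages over the 8 arrays at 36 h were 5.30 and 3.44 times the pool for these probes, so samples of both treatments exceeded the pool they were set against. Of the 5 Pigt probes 2 passed, and the others gave 1.36, -0.03 and -0.16. The Pigt call was lost without vehicle replicate 3 or 4 at 36 h (adjusted p = 0.0598 and 0.0691), and that of Fam221b without any of 7 arrays.

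The largest change of all was the fall in the ratio of Mogat1, which encodes monoacylglycerol acyltransferase 1, an enzyme of triglyceride synthesis. Its ratios were -0.15, -0.07, 0.02 and 0.35 at 2 h and -3.41, -3.23, -3.37 and -3.56 at 36 h, a separation many times the spread of either group. The fall was 10.8-fold (-3.43 ± 0.14, adjusted p = 5.92e-09). With dex the Mogat1 ratio rose by 0.70 over the same hours, so that dex exceeded vehicle by 0.06 at 2 h and by 4.19 at 36 h, and the time changes differed by 4.13 (adjusted p = 6.38e-08).

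Mature adipocyte genes as a list held 5 falls and no rise among 29 (17.24% called), with a median of -0.12. Over all genes 1.26% were called, 0.993% downward and 0.27% upward. The list was chosen with earlier results of these data known, so nothing is read from its share. Without vehicle replicate 4 at 2 h the list held 2 rises and 4 falls, and under quantile normalization 1 and 6. In the reported fit the genes that fell beside Mogat1 were Agt, Cd36, Plin4 and Lpl. Plin4, a coat protein of lipid droplets, fell by 0.65 ± 0.09 (adjusted p = 0.00209), from -0.15, 0.12, 0.12 and -0.09 to -0.71, -0.75, -0.54 and -0.60. Agt, angiotensinogen, fell by 1.17 ± 0.24, from 0.44, 0.23, 0.33 and 0.03 to -1.05, -0.93, -0.75 and -0.91. Cd36, a fatty acid transporter, fell by 0.79 ± 0.17, and Lpl, the lipase that frees fatty acids from lipoproteins, by 0.46 ± 0.08. Fabp4, the fatty acid carrier of adipocytes, gave -1.10 ± 0.31 and did not pass (adjusted p = 0.142), although its 36-hour arrays at -1.75, -1.90, -1.57 and -1.65 lay below its 2-hour arrays at -0.93, -0.46, -0.49 and -0.62. In the fit to the 8 vehicle arrays alone Fabp4 passed (adjusted p = 0.0127). The calls of Agt and Cd36 ended without any of 9 and of 13 arrays (adjusted p up to 0.118 and 0.168), and that of Lpl without vehicle replicate 4 at 36 h (0.0545).

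Of 29 transcription factors and cofactors of adipogenesis, Pparg alone passed (3.45%, against 1.26% of all genes). The list held 3 falls without vehicle replicate 4 at 2 h, 3 under quantile normalization and none in the fit to the vehicle arrays alone. The receptor stood at 0.40, 0.10, 0.22 and 0.09 at 2 h and at -0.72, -0.64, -0.33 and -0.40 at 36 h, a fall of 0.73 ± 0.15 (adjusted p = 0.0332). The call rested on 1 of 3 probes, the others giving -0.23 and -0.34, and ended without any of 9 arrays (adjusted p up to 0.13). Cebpa gave -0.24 ± 0.13 (adjusted p = 0.505), Cebpb -0.11 ± 0.10 (0.731) and Cebpd -0.26 ± 0.13 (0.443), none past the threshold. Without vehicle replicate 4 at 2 h, Cebpa reached an adjusted p of 0.0488. Of the 29 genes 23 had values below 0, with a median of -0.11.

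Preadipocyte markers and inhibitors of adipogenesis gave 1 rise, of Sox4, and 2 falls in 33 genes (9.09% called, against 1.26% of all genes). With the replicate block or the vehicle arrays alone they gave 1 rise and no fall. Id4 and Id1, which bind and block basic helix-loop-helix factors, fell by 0.54 and 0.45, though a second Id1 probe gave -0.015. Each lost its call without any of 11 arrays. Dlk1, the surface protein that marks preadipocytes, gave 0.68 ± 0.17 (adjusted p = 0.0871), from -0.15, -0.03, 0.31 and 0.17 to 0.19, 0.997, 1.14 and 0.69. Its groups overlapped in replicate 1 at 36 h, without which Dlk1 passed (adjusted p = 0.00889).

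Among 35 genes listed as targets of the glucocorticoid receptor, 5 fell and none rose in cells that received no dex (median -0.10). That is 14.29% called, against 1.26% of all genes. Since the list was chosen with earlier results of these data known, its share is a description and no support. The count was 1 fall with the replicate block and 1 in the fit to the vehicle arrays alone, and with array weights 1 fell and 1 rose. Aldh1a1, a retinaldehyde dehydrogenase, fell by 2.06 ± 0.23 (adjusted p = 2.62e-04), from -0.21, -0.25, -0.25 and 0.03 to -2.45, -3.06, -1.63 and -1.79. Lcn2, an iron-binding lipocalin, fell by 1.29 ± 0.26, Glul, glutamine synthetase, by 0.95 ± 0.21, Fkbp5, a co-chaperone of the receptor, by 0.59 ± 0.12, and Anxa1, annexin A1, by 0.44 ± 0.09. Fkbp5 read -1.20, -1.75, -1.68 and -1.46 at 2 h and -2.30, -2.16, -1.93 and -2.05 at 36 h, against 0.72 to 1.16 in the 8 dex arrays. Vehicle arrays were thus far below the pool at both times. The dex time change did not pass for Glul (-0.20) or Fkbp5 (0.15). Dex minus vehicle passed for Aldh1a1 (2.73), Lcn2 (1.62), Anxa1 (1.09) and Fkbp5 (0.74) and not for Glul (0.75). Nr3c1, the receptor itself, gave -0.10 ± 0.12 (adjusted p = 0.816). The calls ended without any of 4 arrays for Lcn2, 7 for Fkbp5, 11 for Anxa1 and 13 for Glul (adjusted p up to 0.176). Under quantile normalization Fkbp5 and Glul did not pass (adjusted p = 0.274 and 0.214), and with array weights Lcn2 did not (0.272).

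Acute phase genes overlapped with this group. Of 23 genes of complement and the acute phase, 3 fell (13.04%, against 0.993% of all genes), which were Lcn2, Hp and Cp. Under quantile normalization 6 fell and 2 rose, and with array weights 1 fell and 2 rose. Cp, the copper-carrying ferroxidase ceruloplasmin, fell by 1.18 ± 0.16 (adjusted p = 0.0012), from -0.08, -0.21, -0.32 and 0.02 to -1.39, -1.38, -1.09 and -1.47, and its second probe gave -0.26. Hp, haptoglobin, fell by 1.20 ± 0.26 in 1 of 2 probes (the other at -0.11), and its call ended without any of 13 arrays (adjusted p up to 0.156). The list's median was -0.01, near that of all genes.

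**Figure D2:**
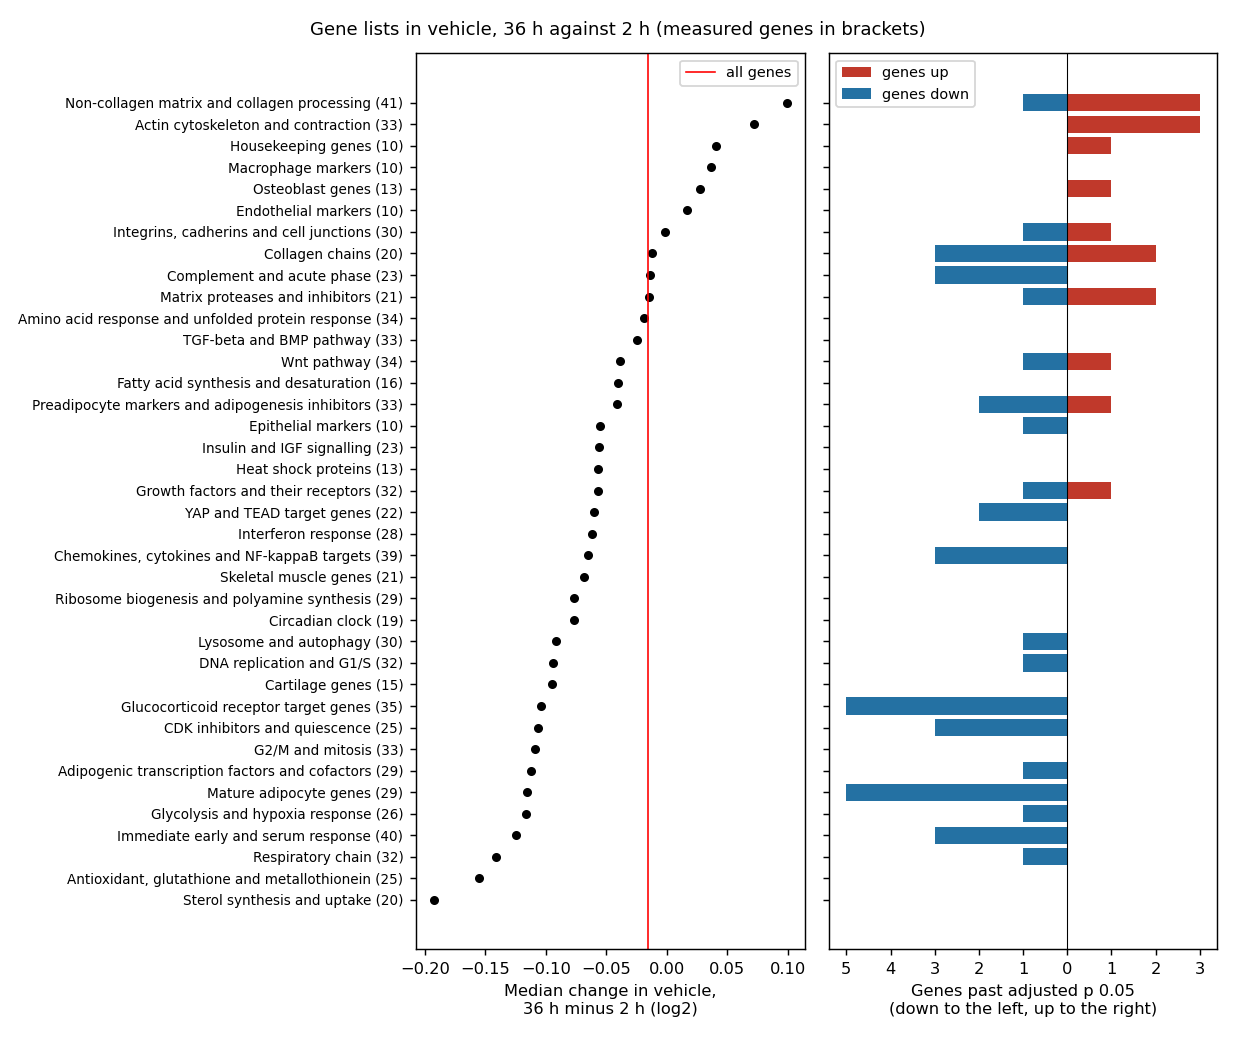
Left, the median log2 change in vehicle from 2 to 36 h of each of 38 gene lists, with the median of all genes (-0.02) as a line; right, the number of genes in each list past the threshold, falls to the left and rises to the right. The non-collagen matrix and actin lists have the highest medians (0.10 and 0.07) and the sterol list the lowest (-0.19), and no list has more than 5 genes past the threshold in 1 direction.

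Cell cycle genes gave few calls. Of 32 genes of DNA replication and entry into S phase, Ccnd1 alone passed (3.12%, against 1.26% of all genes). This gene encodes cyclin D1, which carries growth signals to the cell cycle, and it went from -0.02, 0.06, 0.10 and 0.03 to -0.56, -0.61, -0.44 and -0.55. It fell by 0.58 ± 0.11 (adjusted p = 0.0191), in 1 of 4 probes, with the others at -0.34, -0.43 and -0.33. The Ccnd1 call ended without any of 4 arrays (adjusted p up to 0.0777). Of 33 genes of mitosis none passed in limma, though 26 had values below 0 (median -0.11). An unadjusted p under 0.05 was reached by 5 of them (15.15%, against 15.96% of all genes). Kif20a, a mitotic kinesin, gave 0.35 ± 0.11 (adjusted p = 0.179), and Nusap1, a spindle protein, -0.56 ± 0.17 (0.186). Mki67, the proliferation antigen, gave 0.63 ± 0.45 (adjusted p = 0.644) with 2-hour arrays spread from -2.61 to 0.29, so a change in it was not detectable with these arrays. On the array of vehicle replicate 4 at 2 h the median of the mitotic genes was -0.32, against -0.07 to 0.14 on the other 2-hour arrays and -0.21 to -0.05 at 36 h.

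The growth arrest genes that passed all fell. Of 25 genes of the quiescence list 3 fell (12%, against 0.993% of all genes) and none rose, though with array weights 1 rose. Gas6, a ligand of the TAM receptor kinases named for its appearance in growth-arrested fibroblasts, stood at -0.10, -0.09, -0.03 and -0.02 at 2 h and at -0.80, -0.86, -0.78 and -0.87 at 36 h (-0.77 ± 0.10, adjusted p = 0.0013). Gas1, a surface protein that blocks entry into S phase, went from 0.29, 0.39, 0.37 and 0.33 to -0.40, -0.34, -0.10 and -0.34 (-0.64 ± 0.10, adjusted p = 0.00304). Tob1, an antiproliferative protein, fell by 0.47 ± 0.08, and its call ended without vehicle replicate 1 or 4 at 36 h (adjusted p = 0.0583 and 0.0691). The inhibitors Cdkn1a (-0.24 ± 0.08, adjusted p = 0.195) and Cdkn1b (-0.17 ± 0.10, 0.542) did not pass. Over time with dex, Gas1 rose by 0.50 and Tob1 by 0.50, both past the threshold.

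Immediate early and serum response genes gave 3 falls and no rise in 40 (7.5% called, against 1.26% of all genes). The list held 7 falls without vehicle replicate 4 at 2 h, 8 falls and 1 rise with array weights, and no call in the fit to the vehicle arrays alone. Myc, a transcription factor of growth, fell by 0.82 ± 0.15 (adjusted p = 0.0115), from -0.29, -0.06, -0.33 and -0.58 to -1.24, -1.45, -0.98 and -0.88, and lost its call without replicate 1 at 36 h (0.0515). The second Myc probe gave -0.25. Fosl1, an AP-1 subunit, fell by 0.56 ± 0.11, and Klf10, an early zinc finger factor of the TGF-beta response, by 0.48 ± 0.10. At 2 h Fosl1 stood above the pool on every vehicle array (0.60, 0.87, 0.83 and 0.29), and at 36 h it was near the pool (0.11, 0.07, 0.06 and 0.10). The Fosl1 and Klf10 calls ended without any of 6 and of 11 arrays (adjusted p up to 0.0924 and 0.156) and under quantile normalization (0.0803 and 0.152). Fos gave 0.17 ± 0.24 (adjusted p = 0.848), with 2-hour arrays from -1.06 to 0.68, and Egr1 0.22 ± 0.16 (0.651). Fos turned to -0.13 without replicate 4 at 2 h. Targets of YAP and TEAD, which report cell spreading, gave 2 falls in 22 genes (9.09%, against 0.993% of all genes). These were Ajuba (-0.58), a LIM protein, and Ccn1 (-0.43), a matricellular protein. Their second probes gave 0.015 and 0.26, and neither gene passed with the replicate block or in the fit to the vehicle arrays alone. Ccn1 also moved by -0.37 with dex, which did not pass. Calls of Ajuba and Ccn1 ended without any of 13 and of 11 arrays.

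Chemokine and NF-kappaB target genes gave 3 falls in 39 (7.69%, against 0.993% of all genes). They gave 1 fall with the replicate block, 1 fall and 1 rise under quantile normalization and no call in the vehicle arrays alone. Ccl7, a monocyte attractant, fell by 0.88 ± 0.16 (adjusted p = 0.0157), from 0.24, 0.62, 0.90 and 0.62 to -0.17, -0.46, -0.38 and -0.16. Its call ended without replicate 2 or 3 at 36 h (adjusted p = 0.0676 and 0.0621) and under quantile normalization (0.103). Tnfaip2 fell by 0.38 ± 0.08 and Ptges, a prostaglandin E synthase, by 0.31 ± 0.07, with calls that ended without any of 9 and of 11 arrays. Ccl2, another monocyte attractant, gave -0.10 ± 0.14 (adjusted p = 0.843), at 0.48, 0.64, 0.80 and 0.56 and then 0.48, 0.47, 0.60 and 0.52. Il6 gave -0.10 ± 0.12 (0.801) and Cxcl5 0.10 ± 0.23 (0.926). Ccl7 rose by 1.31 with dex, and the dex change minus the vehicle change was 2.19 (adjusted p = 7.26e-05). Its dex arrays averaged -1.28 at 2 h and 0.03 at 36 h. Dex thus differed from vehicle by -1.87 at 2 h and by 0.32 at 36 h.

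Metabolic lists held hardly any calls, but several leaned downward. All 20 sterol synthesis and uptake genes had values below 0, with a median of -0.19, and none passed in limma, with 5 at an unadjusted p under 0.05. Dhcr7, the last enzyme of cholesterol synthesis, gave -0.45 ± 0.15 (adjusted p = 0.213). Insig1, a sensor that holds back this pathway, gave -0.59 ± 0.22 (0.304), with 36-hour arrays at -0.45, -0.43, -0.36 and -0.43 below 2-hour arrays at 0.26, 0.20, 0.10 and 0.10, and passed in the fit to the vehicle arrays alone (0.0169). The sterol list's median on the 2-hour arrays was 0.25 in replicate 1 and -0.03 to 0.05 in the others, and -0.19 to -0.06 at 36 h. The difference was thus widest against replicate 1. Of 25 antioxidant genes 22 were below 0 and none passed, with 10 at an unadjusted p under 0.05 (2 up and 8 down). Of 32 respiratory chain genes 27 were below 0 and Sdhc, a subunit of complex II, fell (-0.31 ± 0.07). Of 19 clock genes 17 were below 0 and none passed, with 5 at an unadjusted p under 0.05. Bhlhe40, a repressor of the clock, was nearest to the threshold (-0.62 ± 0.14, adjusted p = 0.0509) and passed without replicate 4 at 2 h (0.0255). Over all genes 10687 of 19640 were below 0. An unadjusted p under 0.05 was reached by 25.0% of the sterol, 40.0% of the antioxidant and 26.32% of the clock genes, against 15.96% of all genes. It was also reached by 40.62% of the respiratory chain genes and by 80.0% of 10 housekeeping genes (4 up, 4 down). The measure therefore does not set the metabolic lists apart. Signs here are of means over probes, whereas these p-values are of the probe with the smallest p.

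**Figure D3:**
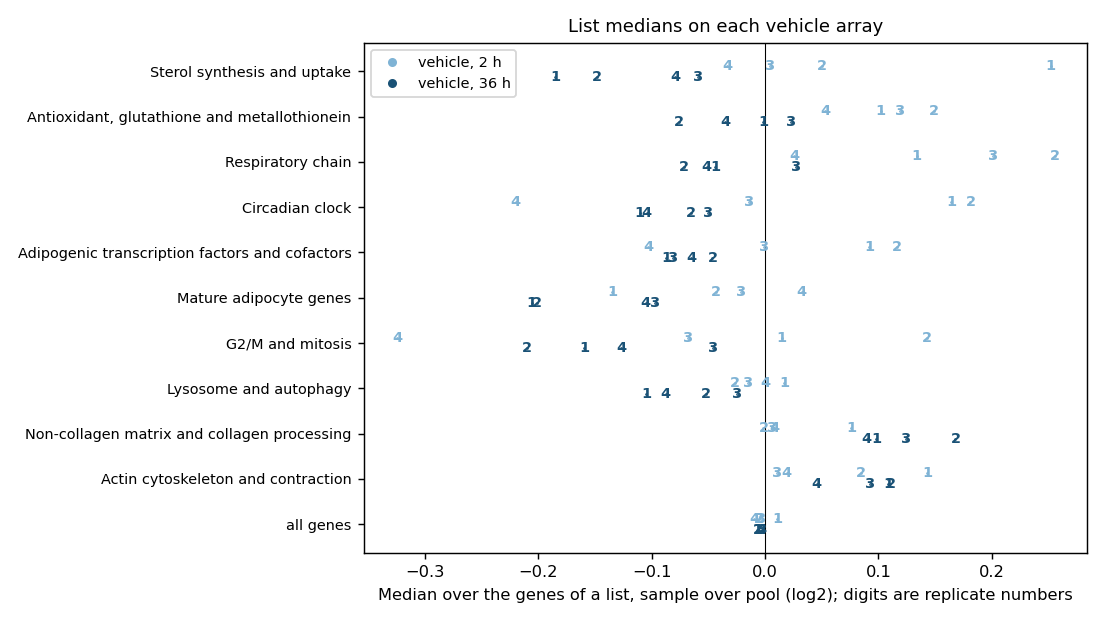
For 10 gene lists and all genes, the median log2 ratio of sample over pool on each vehicle array, printed as the replicate number, pale at 2 h and dark at 36 h. The antioxidant and sterol lists (lower at 36 h) and the non-collagen matrix list (higher at 36 h) do not overlap between the times. The respiratory chain list overlaps only in replicate 3 at 36 h and replicate 4 at 2 h. For mitotic genes, clock genes and adipogenic transcription factors replicate 4 at 2 h lies below the 36-hour arrays.

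Single calls came from the remaining lists. Car9, a carbonic anhydrase of the hypoxia response, fell by 0.99 ± 0.15 (adjusted p = 0.00311), from 0.14, -0.16, -0.06 and -0.08 to -0.97, -1.03, -0.93 and -1.20, while its second probe gave 0.04. Lrp5, a Wnt co-receptor, fell by 0.51 ± 0.09 (its second probe gave -0.05), Cdh13, a cadherin without a cytoplasmic tail, by 0.59 ± 0.10, and Ctsd, a lysosomal protease, by 0.30 ± 0.06 in 1 of 13 probes. Their calls ended without any of 3, of 1 (vehicle replicate 1 at 36 h, adjusted p = 0.051) and of 10 arrays, and that of Sdhc without any of 11 (up to 0.159). Krt8 fell by 0.48 ± 0.08 (adjusted p = 0.00504). No gene passed among those of the interferon response (28 genes), TGF-beta and BMP signalling (33), the unfolded protein response (34), heat shock proteins (13), fatty acid synthesis (16), insulin and IGF signalling (23), ribosome biogenesis (29), cartilage (15) or skeletal muscle (21). In the alternatives run TGF-beta and BMP signalling reached 2 rises and 3 falls, under quantile normalization, and each of the other lists at most 2 calls. Between 2 and 9 genes of each of these lists had an unadjusted p under 0.05 at the probe with the smallest p. The shares ran from 9.52% (skeletal muscle) to 34.78% (insulin and IGF signalling), against 15.96% of all genes.

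Several large falls concerned genes outside these lists. Artn, artemin, a ligand of the RET receptor, stood at -0.42, -0.84, -0.87 and -0.14 at 2 h and at -3.34, -3.19, -3.17 and -3.51 at 36 h (6.69-fold, -2.74 ± 0.23, adjusted p = 1.44e-05), but its 2 other probes gave -0.10 and -0.20. Ifi204, an interferon-inducible DNA sensor, went from -0.06, -0.25, -0.34 and -0.45 to -2.43, -2.38, -2.20 and -2.35 (-2.07 ± 0.11, adjusted p = 6.86e-08). Plxdc1, a plexin domain receptor, fell by 1.78 ± 0.14 and Adcy3, an adenylyl cyclase, by 1.73 ± 0.13, each from arrays that were already below the pool at 2 h. Hrh4, a histamine receptor, fell by 2.59 ± 0.37, and Cdh15, a cadherin first described in muscle, fell by 1.92 ± 0.24.

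The others among the 15 largest falls were Epb41l5 (-2.67), Zcchc14 (-2.32), Mrnip (-2.28), Pacc1, a proton-activated chloride channel (-2.22), Ear10, a ribonuclease of the eosinophil family (-2.02), Olfr507, an olfactory receptor (-1.80), and Iglon5, a cell adhesion protein (-1.67). Second probes of Epb41l5, Zcchc14 and Mrnip gave 0.01, -0.20 and 0.03, and those of Adcy3 -0.48 and -0.13. Ear10, Olfr507 and Ifi204 belong to families of closely similar genes that a long probe may not separate. By the naming rule the 36-hour vehicle arrays of all 15 lay below the 2-hour vehicle arrays, and they also lay below the pool. Dex minus vehicle passed in the upward direction in each. The large vehicle fall is a term of that difference, so nothing is read from its passing in all 15. A clone symbol of comparable size was left out by the naming rule.

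Set side by side, the change over time in vehicle and that with dex mostly had opposite signs in the genes called. This was so in 211 of the 248 (85.1%), against 53.9% of all genes. Of the 53 risers, 29 were called down over time with dex, 2 up and 22 not called. Of the 195 fallers, 54 were called up, 4 down, 1 in both directions by different probes, and 136 not called. The test of the difference itself, dex change minus vehicle change, passed at the quoted probe in 45 of 53 risers and 159 of 195 fallers. Over all genes it passed in 683 (3.48%), upward in 2.12% and downward in 1.36%. The vehicle change is a term of this difference, so genes called in vehicle pass it more readily, and nothing is read from these counts. The 8 largest differences downward included Hectd2 (-2.35), a ubiquitin ligase whose rise in vehicle of 1.29 did not pass (adjusted p = 0.0882), Serpinb3a (-1.87) and 1 clone symbol.

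**Figure D4:**
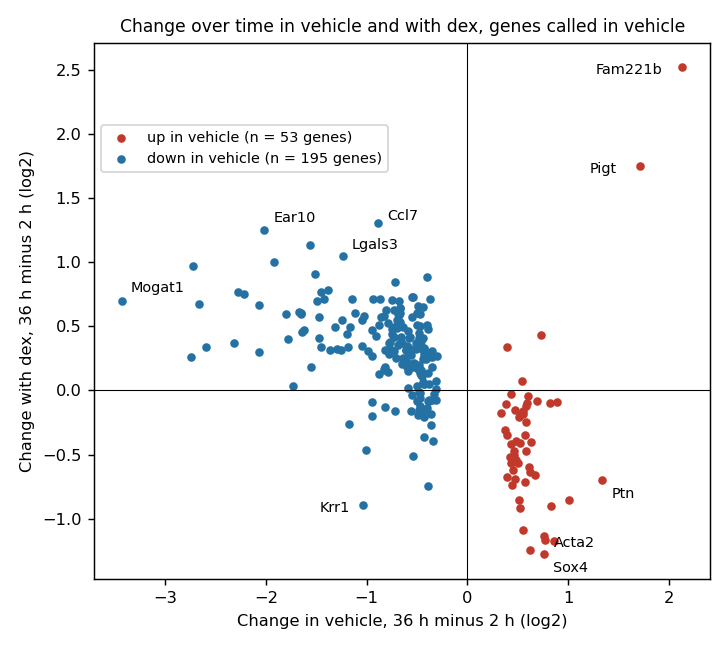
Each point is 1 of the 248 genes called in vehicle, by its log2 change from 2 to 36 h in vehicle (horizontal) and with dex (vertical), red for the 53 risers and blue for the 195 fallers. Most points lie in the upper left and lower right, with opposite signs. Fam221b and Pigt lie furthest out at the upper right, where a few other risers such as Upp2 also lie.

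The mean ratio to the pool was also taken per time. Over the 8 arrays of a time, vehicle and dex together, the mean of sample over pool of the 248 genes had a median of 1.05 at 2 h (0.905 at the 10th and 1.22 at the 90th percentile) and of 1.03 at 36 h (0.892 and 1.19). The vehicle arrays alone had medians of 1.02 at 2 h and 0.658 at 36 h in the fallers, and the dex arrays 1.09 and 1.397. For Mogat1 the mean over a time's 8 arrays was 1.05 at 2 h and 0.93 at 36 h. A mean near 1 at each time is what a pool of each time's own samples gives, and a pool of all samples can give it too where vehicle and dex move apart by amounts that offset each other. Their part in the vehicle changes was not tested.

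**Figure D5:**
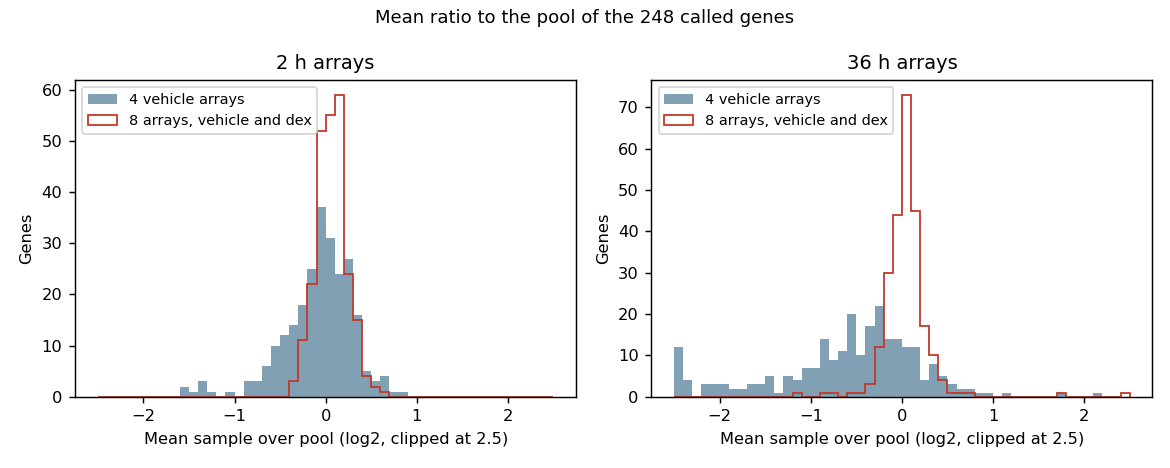
Histograms of the mean ratio of sample over pool of the 248 called genes, on a log2 axis and in bins of 0.1, at 2 h (left) and 36 h (right), filled for the 4 vehicle arrays and outlined for all 8 arrays of that time. The outlined means gather around 0, which is a ratio of 1, at both times, while the vehicle means at 36 h reach far below; values past 2.5 are drawn at 2.5.

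The mean of the vehicle and dex changes, a contrast added after the data were seen, passed for 71 genes (0.362%), 63 down (0.321%) and 8 up (0.0407%), and for 26 of the 248. Among these were Fam221b (2.33), Pigt (1.73) and Upp2 (0.58) upward, and Ccn1 (-0.40) downward at the quoted probes, which moved the same way in both treatments. Mogat1 (-1.37), Artn (-1.24) and Ifi204 (-0.88) passed too, with a fall in vehicle that was larger than the rise with dex.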

How the data were processed

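The authors deposited 1 normalized log ratio (Cy5 sample over Cy3 pool) per probe and array, per the labels, and these deposited values were used as log2 without change. Their base, background correction and normalization method are stated in no source used here. The submitters' processing notes name limma. No scanner intensities were used, so depth and background are unknown, and the precision is limited by 4 arrays per group.

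Group means over all 16 arrays were fitted per probe with limma 3.58.1 in R 4.3.3 (lmFit, eBayes; residual degrees of freedom 12, prior 3.19). Contrasts were 36 h minus 2 h in vehicle and with dex, and their difference. P values were Benjamini-Hochberg adjusted over 38467 probes (131 values were missing, all on dex arrays). A gene passed where 1 probe naming only it had an adjusted p under 0.05, and its value is that of the probe with the smallest p in vehicle. Values after ± are SE with n = 4 per group. A list's median is over genes, each the mean of its probes. The platform named 1 gene for 29456 probes. Symbols and promoters came from RefSeq, GRCm38.p6. Probes have no genome positions here.

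The members and the gene lists were chosen with earlier results of these data known, so list shares beside those of all genes are descriptions. Named were the 15 largest rises and falls with separated arrays (clone symbols left out), the leading genes of each list, 24 genes in every case, and the 8 largest differences each way between the time changes. The limma step was tested on simulated data. Alternatives were other array sets, a replicate block, array weights, quantile normalization, robust variance, log-odds above 0, gene means, median centring, complete probes and leaving out each array.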

Additional observations from a re-analysis of the deposited data

Results flagged for a closer look

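For 71 of the 95 genes named, the change over time with dex differed from that in vehicle by the test of the difference itself (limma adjusted p under 0.05). The genes were named for their vehicle change or for this difference, so their count is fixed in part by the choice and only the values are given. The values in brackets are the dex change minus the vehicle change on the log2 scale. Among the matrix, actin and adhesion genes the lower ones were Postn (-2.03), Acta2 (-1.94), Col12a1 (-1.90), Tpm1 (-1.64), Tnc (-1.37), Adamts1 (-1.18), Actb (-0.92), Dcn (-0.84), Col1a1 (-0.77), Timp3 (-0.71) and Itga11 (-0.62), and the higher ones Col4a1 (1.18), Cdh13 (1.05), Ajuba (0.99), Adamts12 (0.93), Col6a2 (0.81), Nid1 (0.75) and Col6a1 (0.73). Other genes with a lower change were Hectd2 (-2.35), Ptn (-2.04), Sox4 (-2.04), Serpinb3a (-1.87), Tcim (-1.86), Egr1 (-1.77), Adam21 (-1.74), Nrep (-1.33), Peli1 (-1.03), Malat1 (-0.98) and Wnt5a (-0.74). Among the adipocyte, glucocorticoid target and acute phase genes the change was higher for Mogat1 (4.13), Aldh1a1 (2.73), Agt (1.66), Hp (1.64), Lcn2 (1.62), Cp (1.52), Cd36 (1.32), Anxa1 (1.09), Pparg (1.03), Plin4 (0.85), Lpl (0.81) and Fkbp5 (0.74). In the cell cycle, early response, chemokine and remaining lists it was higher for Ccl7 (2.19), Car9 (1.30), Id4 (1.27), Gas1 (1.14), Bhlhe40 (1.10), Gas6 (1.09), Tnfaip2 (1.09), Nusap1 (1.08), Tob1 (0.97), Ccl2 (0.92), Klf10 (0.89), Ccnd1 (0.87), Krt8 (0.87), Fosl1 (0.84), Lrp5 (0.84), Ctsd (0.57) and Ptges (0.39). The large falls outside the lists completed the set, with Epb41l5 (3.34), Ear10 (3.27), Mrnip (3.04), Artn (3.00), Pacc1 (2.97), Hrh4 (2.93), Cdh15 (2.93), Zcchc14 (2.69), Olfr507 (2.40), Ifi204 (2.37), Iglon5 (2.29), Plxdc1 (2.18) and Adcy3 (1.77).

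Single arrays stood apart from the other 3 of their group in 12 of 190 groups examined (2 vehicle groups for each of 95 genes), by a gap that took up most of the group's range and exceeded Dixon's 95% critical value. Chance flags about 1 group in 20. At 2 h these were replicate 1 for Postn (-0.71) and Anxa1 (0.0016), replicate 2 for Nrep (0.028), replicate 3 for Olfr507 (-0.90), and replicate 4 for Hrh4 (0.47), Aldh1a1 (0.031), Cdh13 (0.44) and Hectd2 (-2.41). At 36 h they were replicate 1 for Anxa1 (-0.50) and Cdh13 (-0.69), replicate 2 for Mki67 (-0.48) and replicate 4 for Ajuba (-0.15). The values are log2 ratios to the pool, and 4 of the 12 fell on replicate 4 at 2 h.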

How the results depend on the processing

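With array weights 501 genes were called in vehicle (174 up, 327 down), 3973 over time with dex and 1847 for the difference of the time changes, against 248 (53 and 195), 478 and 683 as reported. Quantile normalization gave 750 (294 up, 454 down, 2 both), 819 and 1405. The fit to the 8 vehicle arrays alone called 94 genes (15 up, 79 down), and that to the 8 dex arrays 265. Leaving out 1 array gave 120 to 531 genes in vehicle (21 to 162 up, 95 to 369 down) and 167 to 822 with dex, and the highest count of each came without vehicle replicate 4 at 2 h. The vehicle count stayed within 1.5 times of that reported with complete probes, gene means, median centring, robust variance and log-odds above 0.

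Arrays with the same replicate number did not deviate together between the times in vehicle (r = -0.054, -0.100, -0.011 and -0.016). They share only a number. With the replicate block 176 genes were called in vehicle, of which 33 rose and 143 fell.

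Of 74 named genes past the threshold, 25 kept call and direction in all 25 alternatives and 37 whichever array was left out. None of the 74 changed direction. The vehicle-only fit ended most calls, 39. Genes that did not pass turned sign in Nr3c1 (0.030 with array weights; -0.18 to 0.042 leaving out 1 array), Ccl2 (0.20 with quantile normalization) and Fos (-0.13 to 0.45 leaving out 1 array). The restricted fits also hold fewer arrays. The cause of these differences was not tested. Leaving out dex arrays, which enter the vehicle test through the shared variance, was added after seeing the data.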
